A study of Mus musculus with 2 samples.

Results

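Replication-independent histone variants are histones made outside S phase as well as within it, and they replace the bulk histones in nucleosomes that are already assembled. The group described here was a list of 9 genes chosen by symbol, of 55536 annotated genes: H3f3a and H3f3b (histone H3.3), H2afz and H2afv (the 2 forms of H2A.Z), H2afx (H2A.X), H2afy (macroH2A1), H2afj (H2A.J), and the linker histone genes H1f0 and H1fx. Each symbol matched 1 gene identifier. Total RNA was sequenced from primary spleen neutrophils of virgin adult male mice of strain B6CASTF1/J, a first-generation cross whose mother was C57BL/6 and whose father was CAST/EiJ, at the age of 59 days. There were 2 libraries of this 1 group, labelled biological replicates 1 and 2, each made with a strand-keeping kit from 300 ng of starting RNA to which ERCC control RNAs were added, and no treatment or second genotype was labelled. Both carry the same donor label and separate biosample labels. Separate animals are not stated, and the spread between the libraries may therefore be technical.

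The bulk histones are encoded by clustered genes that are transcribed in S phase and whose mRNAs end in a stem-loop instead of a poly(A) tail. Variant genes mostly stand alone, many have introns, and their mRNAs are polyadenylated. H3.3 is placed at active genes by the HIRA complex and at repeats by DAXX and ATRX. H2A.Z is exchanged into nucleosomes beside promoters, H2A.X is phosphorylated around DNA breaks, macroH2A carries a large folded domain outside the nucleosome, and H1.0 accumulates in cells that have stopped dividing. Neutrophils pack their chromatin into a lobed nucleus and can expel it, with its histones, as extracellular traps.

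The depth was 18836093 estimated reads in replicate 1 and 18444369 in replicate 2, with 0.26% and 0.274% of them from ERCC controls. All 9 neutrophil markers examined were above 1 TPM (a level scaled for transcript length and to a fixed total per library) in both libraries, with a sum of 59209 and 55605 TPM. Other cell types were seen at lower levels. Erythroid markers summed to 973 and 1022 TPM, B cell markers to 199 and 144 TPM, and monocyte markers to 1949 and 1740.3 TPM. None of the 6 T cell markers reached 1 TPM in both libraries; Cd3e, at 0 reads in replicate 2, Cd3g, Cd4 and Cd8a were under 1 TPM in both. All 12 genes of a cell cycle list were above 1 TPM, with a sum of 675 and 818 TPM. In bulk RNA, fewer cells of a type and less RNA per cell cannot be told apart.

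The genes of a pair encode the same or nearly the same histone from different sequences, and this decides how well reads can be assigned to each. H3f3a (chr1:180800832-180813943) and H3f3b (chr11:116021912-116027962, both on the minus strand of mm10) were compared in H3f3a-205 and H3f3b-201. Their coding sequences of 411 bases differ at 95 positions, and 0 of the 83 codons that differ change the residue under the standard code. Of the base differences, 85.3% lie at the third codon position, and the longest run of identical bases is 23. H3f3a-201, which took more of the H3f3a level than H3f3a-205, has 408 coding bases and was not compared. H2afz (chr3:137864487-137866922, plus strand) and H2afv (chr11:6427229-6444443, minus strand) were compared in H2afz-201 and H2afv-202. These differ at 81 of 387 coding bases, in 74 codons, of which 3 change the residue. Their longest identical run is 14 bases. The first 90 coding bases of a transcript of each gene are shown 5′ to 3′, from annotation release M21, with the bases that differ within the pair in capitals.
H3f3a-205: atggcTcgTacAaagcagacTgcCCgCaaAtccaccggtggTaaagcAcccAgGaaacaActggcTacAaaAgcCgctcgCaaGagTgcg
H3f3b-201: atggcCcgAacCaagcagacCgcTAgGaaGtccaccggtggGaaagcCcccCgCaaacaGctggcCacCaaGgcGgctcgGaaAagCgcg
H2afz-201: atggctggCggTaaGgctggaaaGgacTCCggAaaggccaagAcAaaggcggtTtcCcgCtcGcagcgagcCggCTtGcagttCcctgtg
H2afv-202: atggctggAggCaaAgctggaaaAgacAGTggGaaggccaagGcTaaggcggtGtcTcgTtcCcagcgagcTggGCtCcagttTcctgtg

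H2afx (chr9:44334694-44336077, plus strand), a gene of 1 exon, differs from the other members at its 3′ end. The end of its coding sequence is shown because it specifies the tail that is phosphorylated at DNA breaks; capitals mark the codons from the phosphorylated serine to the stop codon. The other sequence, 46 bases after the stop codon, is a match to the histone stem-loop, shown with 5 bases on either side and the stem-loop in capitals.
H2afx-201, end of coding sequence: aaggcctcgcaggccTCTCAGGAGTACTGA
H2afx-201, stem-loop match: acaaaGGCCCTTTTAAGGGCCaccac
The histone stem-loop was searched on the transcript strand alone. It was found in 1 of the 9 members, H2afx, in 44 of 67 replication-dependent protein-coding histone genes (65.7%) and in 3 of 21875 other protein-coding genes (0.0137%). The annotated H2afx transcript runs on for 822 bases beyond the match, so the annotation holds the long form of this mRNA; H2afx is known to make both a short stem-loop form and a long polyadenylated form. The label replication-independent thus does not describe the H2afx sequence fully. A match is a description of letters and shows no processing, and the tables do not separate the short form from the long one.

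H2afy (chr13:56073619-56136361, minus strand) makes 2 proteins from mutually exclusive exons. The exon of macroH2A1.2 (chr13:56089758-56089857) has 100 bases and is held by H2afy-201 and by H2afy-206. That of macroH2A1.1 (chr13:56088252-56088342), the form that binds ADP-ribose, has 91 bases and is held by H2afy-202. They are shown because the ratio of the forms rests on reads that touch them.
macroH2A1.2 exon: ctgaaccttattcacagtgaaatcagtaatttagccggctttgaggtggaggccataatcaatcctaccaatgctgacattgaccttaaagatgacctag
macroH2A1.1 exon: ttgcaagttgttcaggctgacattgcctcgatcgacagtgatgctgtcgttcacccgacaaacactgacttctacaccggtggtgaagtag

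The 9 genes spanned more than 3 orders of magnitude in level, and the H3.3 genes were highest. Among 22028 protein-coding genes, H3f3b ranked 14 in replicate 1 and 13 in replicate 2, and H3f3a ranked 40 and 54. H2afz, H2afy and H2afx followed at more than 100 TPM each, H2afj and H2afv stood near 40 TPM, H1f0 near 12 TPM, and H1fx near 1 TPM. The median of protein-coding genes at 1 TPM or more was 13.4 and 13.7 TPM in replicates 1 and 2, which places H1f0 just under it. Their sums were 2929 TPM (replicate 1) and 3065 TPM (replicate 2). Rescaled so that protein-coding genes alone make up the total, the mean of that sum was 6409 TPM, and this scaling moves all members alike.

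**Figure D1:**
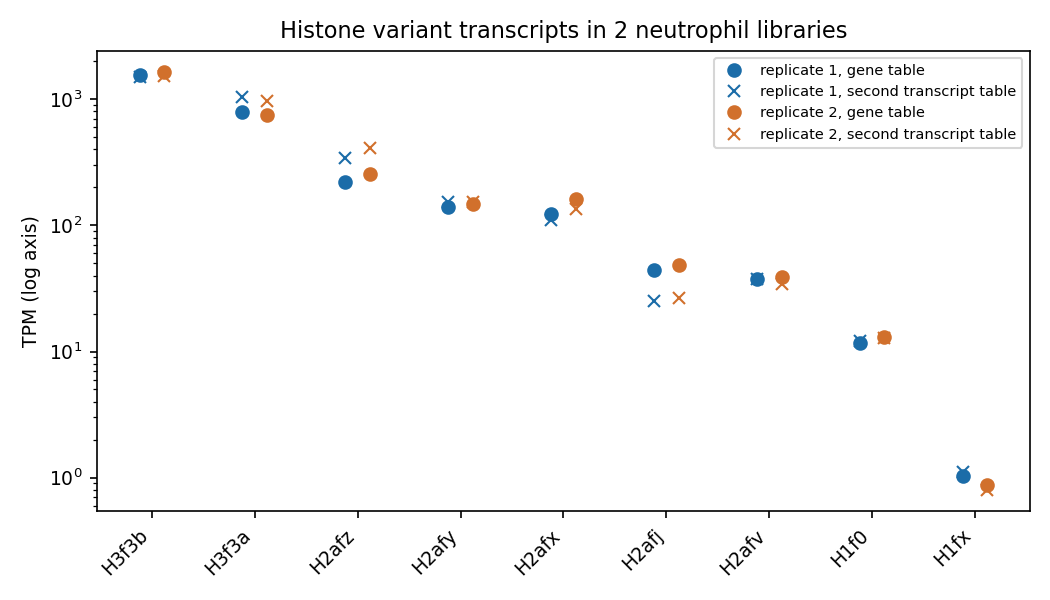
TPM (log axis) of the 9 genes in replicate 1 (blue) and replicate 2 (orange), from the gene table (circles) and the second transcript table (crosses). The order runs from H3f3b at 1559 and 1648 TPM to H1fx at 1.04 and 0.88 TPM, and the tables lie farthest apart for H2afj and H2afz.

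H3f3b was at 1559 TPM in replicate 1 and 1648 TPM in replicate 2 (1604 ± 63.1 TPM, SD, n = 2), from 31085 and 31159 reads. H3f3a was at 791 and 750.2 TPM (771 ± 28.99 TPM), from 12439 and 11744 reads. The genes did not overlap: the lower of the H3f3b values was above the higher of the H3f3a values. H3f3b thus gave 66.3% of H3.3 TPM in replicate 1 and 68.7% in replicate 2 (67.5 ± 1.69%). The share was 60.0% in the second transcript table and 72.0% of expected counts. Over transcripts annotated as protein-coding alone, the order by TPM turned: H3f3b had 423 and 427 TPM against 766 and 729 TPM for H3f3a, and 452 and 436 TPM against 1012 and 942 TPM in the second table. By reads in coding transcripts, H3f3b was still ahead, with 15215 and 14856 reads against 12095 and 11470. Reads are not scaled for length, and H3f3b-201 has 1993 bases against 888 in H3f3a-201 and 724 in H3f3a-207. Scaled for length, H3f3a was therefore ahead in coding transcripts in both tables. That order rests on how reads were divided among the H3f3b transcripts.

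Much of the H3f3b level was assigned to transcripts that are not annotated as protein-coding. H3f3b-204 took 46.9% and 42.1% of the gene's TPM and H3f3b-203 took 26.0% and 32.0%, while the coding H3f3b-201 took 26.8% and 25.4%. In the annotation, H3f3b-203 keeps the intron before the first coding exon of H3f3b-201, and H3f3b-204 keeps the intron after it. Their annotated type is processed transcript, not retained intron. Both also hold coding exons, so reads in those exons were divided among the transcripts by the estimator. Together they held 73.5 ± 0.870% of TPM but 51.7 ± 0.898% of reads, since TPM gives short transcripts more weight, and the share of TPM was 70.4% in the second table. The corresponding share of TPM for H3f3a was 3.04 ± 0.297%. The tables disagreed on which coding transcript of H3f3b was used: H3f3b-201 had 418 TPM and H3f3b-202 had 6.97 TPM on average in the first transcript table, and H3f3b-202 had 452 and 412 TPM in the second, where H3f3b-201 had 0.843 and 23.7 TPM. Their sum was less affected, at 423 and 427 TPM in the first table and 452 and 436 TPM in the second.

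The H3f3a level came mainly from coding transcripts. H3f3a-201 took 47.5% and 52.9% of it, H3f3a-207 took 39.8% and 33.4%, and H3f3a-205 took 6.31% and 7.20%. In the second table H3f3a-207 was ahead, with 60.7% and 53.9%, so the order of the leading transcripts was not settled. H3f3a shares 50-base runs with 132 other genes (12.3% of its runs), 38 of them pseudogenes. The processed pseudogene H3f3c held 96.5 and 119 reads in the gene table and 0 in the second table.

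**Figure D2:**
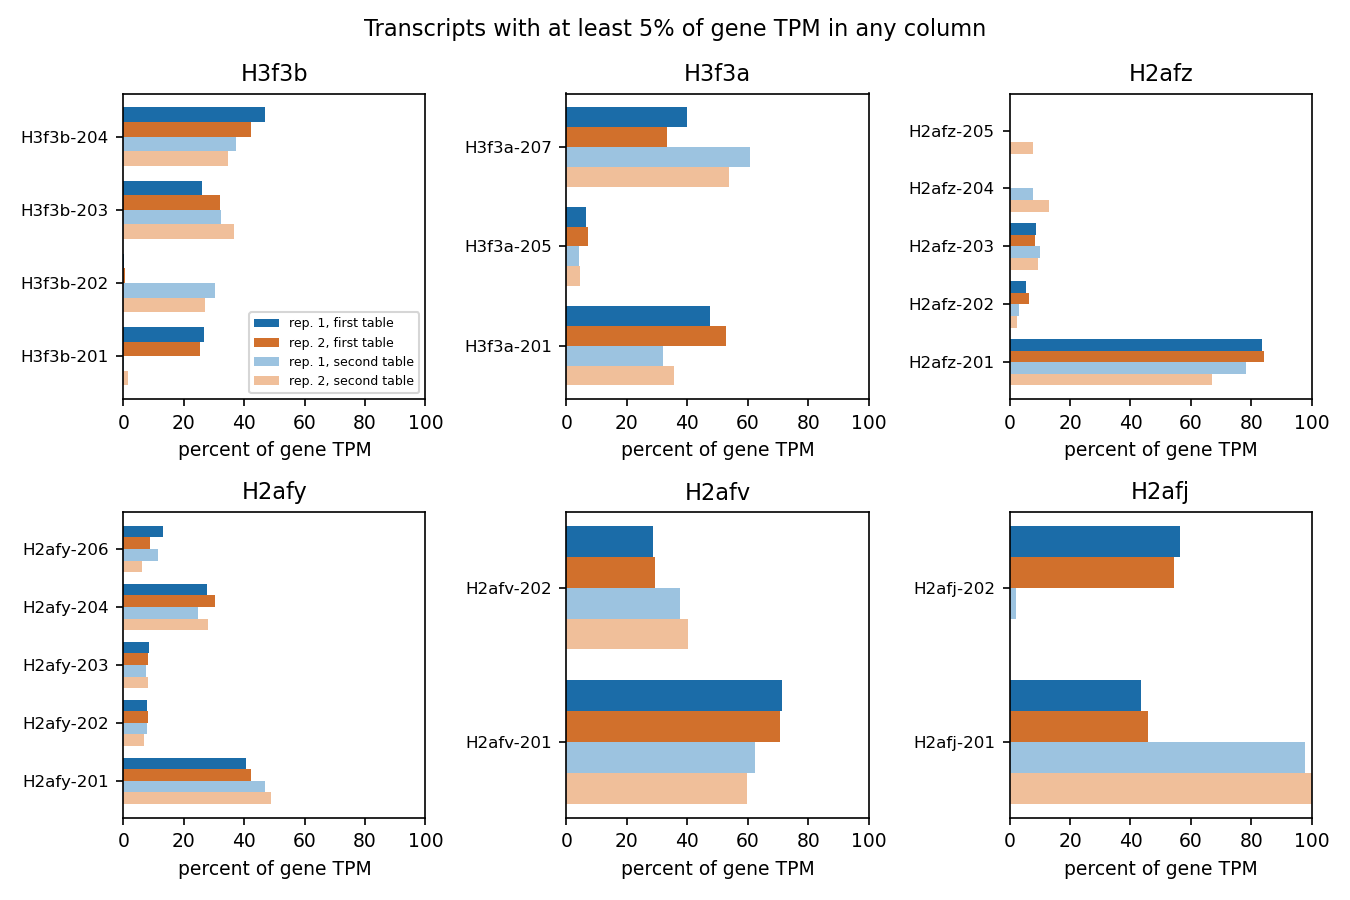
Percent of each gene's TPM (horizontal axes) taken by transcripts with at least 5% in any column, for 6 genes; dark bars are the first transcript table and pale bars the second, blue replicate 1 and orange replicate 2. H3f3b-201 and H3f3b-202 exchange places between the tables, and H2afj-202, at 56.5% and 54.3% in the first, is at 2.07% and 0% in the second.

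H2A.Z RNA came mostly from H2afz. H2afz was at 221 TPM in replicate 1 and 257 TPM in replicate 2 (239 ± 24.8 TPM, SD, n = 2), and H2afv, the gene of the second H2A.Z protein, at 37.6 and 39.2 TPM (38.4 ± 1.15 TPM). The ranges were well apart, and H2afz gave 85.5% and 86.7% of H2A.Z TPM (86.1 ± 0.885%). The share was 91.2% in the second table. H2afz itself was higher there, at 339 and 409 TPM, a mean of 374 TPM, which is more than 1.5 times the level in the gene table. The processed pseudogene Gm8203 on chromosome 6 shares 16.9% of the 50-base runs of H2afz. It held 1074 and 1158 reads in the gene table and 0 in the second, where H2afz held 5132 and 5517 reads against 3906 and 4395. The short transcripts H2afz-204 and H2afz-205, at 0 TPM in the first transcript table, also differed between the tables. H2afz-204 had 26.6 and 53.5 TPM in the second, and H2afz-205 had 0 and 31.2 TPM.

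The coding H2afz-201 led in H2afz, with 83.6% and 84.1% of TPM, and H2afz-203 took 8.82% and 8.51% and H2afz-202 5.53% and 6.36%, both of which keep introns. In the second table H2afz-201 took 78.4% and 67.0%, and the short H2afz-204 took 7.85% and 13.1% and H2afz-205 0% and 7.63%, which were both at 0 TPM in the first table. Transcripts not annotated as protein-coding made up 14.6% of H2afz TPM in the first table and 26.9% in the second (21.1% and 32.7%). H2afv was divided: H2afv-201 took 71.5% and 70.7% of TPM and H2afv-202 took 28.5% and 29.3%. H2afv-201 has a coding sequence of 273 bases against 387 bases in H2afv-202, so the leading transcript by TPM has the shorter coding sequence. Of reads, H2afv-201 held 40.2 ± 0.660%; it is 519 bases long and H2afv-202 1633, so TPM and reads put a different transcript first. H2afv shares no 50-base run with any other gene.

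H2afx was at 124 TPM in replicate 1 and 161 TPM in replicate 2 (143 ± 26.3 TPM, SD, n = 2), from 3014 and 3781 reads. It had the widest relative spread among the 9 members, and replicate 2 was the higher library. H2afx shares 6.14% of its 50-base runs with 21 genes, most of them replication-dependent H2A genes, which held 42305 and 51766 reads in all. Part of its reads could therefore be divided differently. In the second table H2afx held 2586 and 3173 reads, and its mean was 122 TPM.

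H2afy stood at 139 TPM in replicate 1 and 147 TPM in replicate 2 (143 ± 6.18 TPM, SD, n = 2). In the gene table this range lay within that of H2afx, so the order of H2afy and H2afx was not determined there. In the second table H2afy was at 152 and 154 TPM and H2afx at 110 and 134 TPM, with H2afy above in both libraries. The coding H2afy-201 took 40.5% and 42.3% of TPM, H2afy-204 (a processed transcript) 27.8% and 30.4%, the intron-keeping H2afy-206 13.2% and 8.67%, H2afy-203 8.47% and 8.17%, and H2afy-202 7.80% and 8.11%. Transcripts holding one of the exclusive exons made up 60.3 ± 1.72% of the gene's TPM. Among these, macroH2A1.1 was 12.7% in replicate 1 and 13.7% in replicate 2 (13.2 ± 0.750%), and 11.6% in the second table. Between the full-length coding transcripts alone, H2afy-202 and H2afy-201, it was 16.1 ± 0.0268%. The macroH2A1.2 form was thus the more abundant on every measure computed.

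H2afj (chr6:136808244-136810074, plus strand) encodes H2A.J, a variant close to bulk H2A that accumulates in senescent fibroblasts. It stood at 44.4 TPM in replicate 1 and 48.2 TPM in replicate 2 (46.3 ± 2.66 TPM, SD, n = 2), from 859 and 925 reads. In the second table it was 25.1 and 26.7 TPM. There the short H2afj-202, which held 56.5% and 54.3% of TPM in the first table, held 2.07% and 0%. H2afj was above H2afv in the gene table and below it in the second, so the order of this pair depends on the table.

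The linker histone members were the lowest. H1f0 (chr15:79028450-79030504, plus strand), the gene of H1.0, was at 11.8 TPM in replicate 1 and 13.1 TPM in replicate 2 (12.4 ± 0.976 TPM, SD, n = 2), from 435 and 469 reads. H1fx (chr6:87980421-87981637, minus strand), the gene of H1X, had 22 and 18 reads and stood at 1.04 and 0.88 TPM (0.960 ± 0.113 TPM). With so few reads the deposited intervals of the H1fx estimate ran from 0.639 to 1.48 TPM and from 0.515 to 1.304 TPM, and they overlapped. The libraries keep strand, but the sources used here do not give whether the counting used it. Exons of H2afx, H2afy, H2afj, H3f3a, H1f0 and H1fx overlap annotated antisense or small RNA genes, whose reads might then be included.

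Most histone RNA in these libraries came from replication-dependent genes. Those 70 genes, with symbols beginning Hist1h to Hist4h, summed to 24105 TPM in replicate 1 and 30435 TPM in replicate 2. The 9 variant genes made up 10.8% and 9.15% of histone TPM (9.99 ± 1.19%, SD, n = 2), or 18.6% of histone reads. By family the variant share was largest for H3, at 32.0% and 27.1% of TPM (45.4% of reads on average). It was 9.05% and 8.26% for H2A (21.1% of reads), and for linker histones H1f0 and H1fx were 0.758% and 0.727% of H1 TPM. Each of these shares was lower in replicate 2. No H2B or H4 gene is among the members.

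Replication-dependent linker genes were far above H1f0: Hist1h1c was at 783 ± 41.3 TPM, Hist1h1e at 378 ± 35.7 TPM, Hist1h1b at 329 ± 32.5 TPM and Hist1h1a at 243 ± 51.5 TPM (SD, n = 2). The testis gene Hist1h1t was under 1 TPM, at 0.39 and 0.27 TPM. Among 12 other variant genes matched, the centromeric H3 gene Cenpa was highest at 62.8 ± 3.29 TPM, between H2afx and H2afj. H3f3c stood at 18.7 ± 3.27 TPM in the gene table, with the reservation given above. H2afy2, which encodes macroH2A2, was at 1.07 and 0.95 TPM, and H2afy3 had 1 and 0 reads. The testis and oocyte variants H2afb1, H2afb2, H2afb3, H1foo, H1fnt, Hils1, H2al2a and H2bfm had 0 reads in both libraries.

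Each gene's rounded expected counts in the libraries were set against each other with an exact binomial test, two-sided. The test holds counting error only and compares 2 libraries, not conditions. Called genes had an adjusted p (Benjamini-Hochberg over 12437 genes with at least 50 reads in sum) no higher than 0.05 together with a 2-fold or larger ratio. None of the 8 members tested was called, against 2.25% of all genes tested. An unadjusted p of at most 0.05 was seen for 6 members. The share of all genes at that unadjusted threshold was not computed, so this count has no background. At any fold, 4 members passed the adjusted threshold, all higher in replicate 2, where 11.8% of all genes tested were higher and 12.9% lower. With edgeR's exact negative binomial test, which takes a spread from the same libraries (a biological coefficient of variation of 12.2%), 0 members passed the adjusted threshold, against 182 of 12437 genes. At so low a share, 0 of 8 members is no result about the members. An unadjusted p of at most 0.05 was seen for 0 members, and the share of all genes was not computed for this test either. The median absolute log2 ratio was 0.13 for the 8 members and 0.14 for all genes tested. These medians are not matched for depth. Each member tested had at least 435 reads per library, while genes tested went down to 50 reads in sum, where counting error is larger. Whether the members differed as much as genes of their depth was not tested. The signed median was 0.13 for members and 0.00 for all genes.

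H2afx differed most between the libraries, by a log2 ratio of 0.36, replicate 2 over replicate 1 (1.29-fold, 95% counting interval 1.23 to 1.35, adjusted p = 2.63e-23, exact binomial test). H2afz followed with a log2 ratio of 0.21 (1.15-fold, interval 1.11 to 1.21, adjusted p = 1.82e-09, exact binomial test). H2afy had a ratio of 1.08-fold (adjusted p = 0.0061, exact binomial test) and H3f3b of 1.03-fold (adjusted p = 0.00403, exact binomial test). For H3f3b, counts of 31085 and 31159 reads let a ratio of that size pass the test. The 3 ratios that did not pass and lay above 0 were 1.05-fold for H2afv, 1.104-fold for H2afj and 1.11-fold for H1f0. H3f3a was at 0.968-fold (interval 0.944 to 0.993, adjusted p = 0.0508, exact binomial test). H1fx had too few reads to be tested, and its interval of 0.424 to 1.64 allows a change in either direction.

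With summed ERCC reads in place of gene reads as the scale, which moved the median of all genes to -0.08, H3f3b turned to a log2 ratio of -0.04 (adjusted p = 0.00388, exact binomial test) and H2afv to -0.02. On that scale 2 members, H2afx and H2afz, passed as higher and 2, H3f3a and H3f3b, as lower. H2afx and H2afz passed as higher in replicate 2 on every scale computed with the exact binomial test. The ratios of H2afy, H2afj and H1f0 also stayed above 0 on every scale. With ERCC reads their log2 ratios were 0.03, 0.06 and 0.07, and none of these passed.

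**Figure D3:**
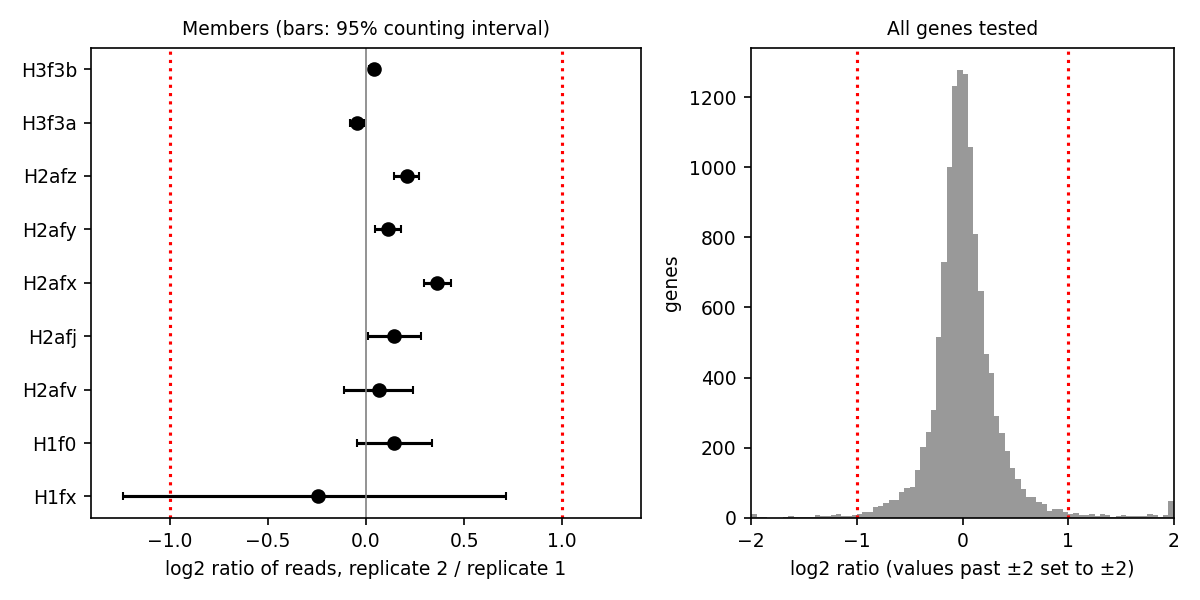
Left, log2 ratio of reads (replicate 2 over replicate 1) of the 9 genes with 95% counting intervals; right, the same ratio for 12437 genes tested. Dotted lines mark 2-fold; H2afx lies farthest from 0 among the 8 members tested, at 0.36, and all 8 lie within 2-fold.

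The replication-dependent histone genes differed in the same direction as H2afx. Of 65 tested, 64 had a ratio above 0, the exception being Hist2h2be, and 61 passed the adjusted threshold, all higher in replicate 2, with a median log2 ratio of 0.32. Hist2h2aa1 and Hist3h2ba, singled out after their values were seen, were called; near-identical copies make single genes of these clusters uncertain. In the cell cycle list, 12 of 12 ratios were above 0 and 10 passed, with a median of 0.26. The 4 highest in level were Top2a (log2 ratio 0.16), Mki67 (0.17), Pcna (0.36) and Mcm5 (0.31). With edgeR's test, 2 of the replication-dependent genes and 0 of the cell cycle genes passed.

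Markers of other cells moved between the libraries too. Of 10 erythroid markers, 7 were called as higher in replicate 2 (Gata1, Klf1, Epor, Slc4a1, Car1, Car2 and Epb42), with a list median of 1.69, while the other 3 were not called. These include the most abundant of the list: Hbb-bs was lower in replicate 2 (log2 ratio -0.37, adjusted p = 3.83e-25, exact binomial test), Hba-a1 was slightly higher (0.09, adjusted p = 0.00683, exact binomial test), and Alas2 was at 0.01. Of 6 B cell markers, 4 were called as lower, among them Cd79a, Ms4a1 and Pax5, with a list median of -1.18. Among 9 neutrophil markers, 7 were lower and 2 higher at the adjusted threshold, with a median of -0.14, and none was called. Of 6 monocyte markers, 5 passed as lower, with a median of -0.13. Of 4 progenitor markers, Kit (log2 ratio 0.32) and Myb (0.30) passed as higher, with a list median of 0.21. With edgeR's test, 7 erythroid and 3 B cell markers passed the adjusted threshold, and 0 neutrophil, monocyte or progenitor markers did, adjusted or unadjusted. The part of these cells in the ratios of H2afx, H2afz and the other members was not tested.

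**Figure D4:**
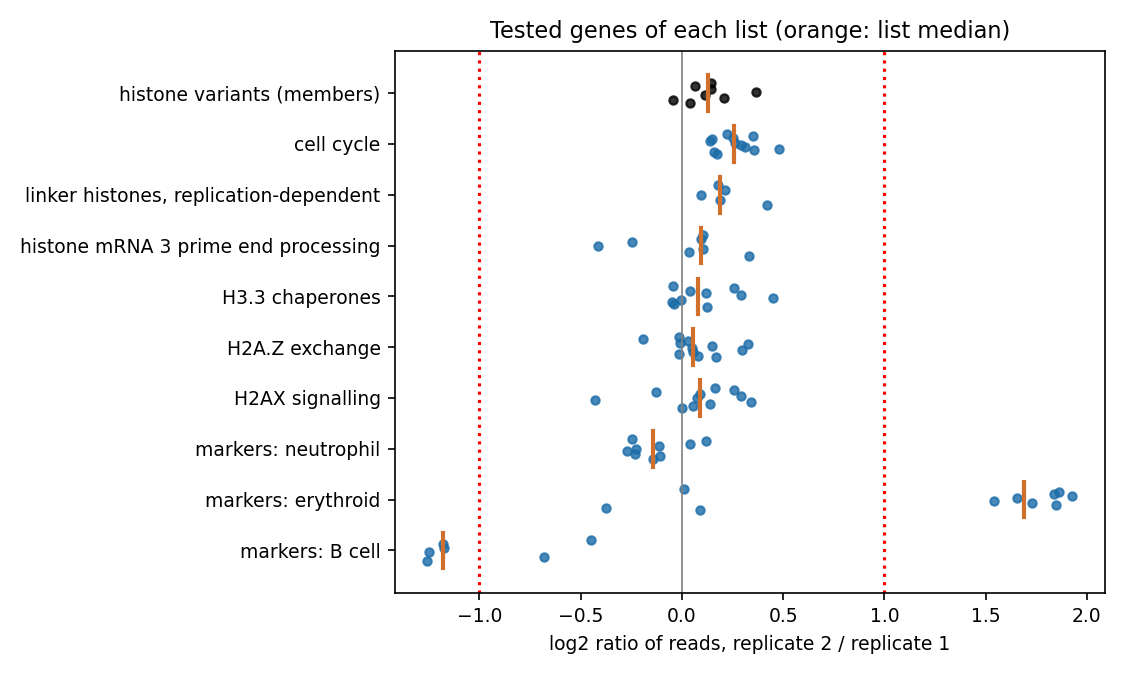
Log2 ratio of reads (replicate 2 over replicate 1) of the tested genes of each list, 1 point per gene, with the list median in orange and 2-fold as dotted lines. The variant genes centre on 0.13, the cell cycle list on 0.26, erythroid markers on 1.69 and B cell markers on -1.18.

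Most partner genes of the variants were above 1 TPM, and none was called between the libraries. All 10 genes of the H3.3 chaperone list were above 1 TPM. The list was made by symbol, and a place on it does not show that a protein, such as that of Sub1, is an H3.3 chaperone. The highest were Sub1 (96.5 ± 3.302 TPM), Dek (89.6 ± 5.76 TPM), Atrx (60.2 ± 3.42 TPM) and Ubn1, a HIRA partner (35.5 ± 2.81 TPM, SD, n = 2). None was called, and 3 passed the adjusted threshold, all higher in replicate 2: Dek (log2 ratio 0.25), and Asf1a (0.45) and Asf1b (0.29), named after their values were seen. Asf1a and Asf1b encode chaperones that hand H3 and H4 to the deposition complexes.

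All 12 genes of H2A.Z exchange were above 1 TPM. Ep400, an exchange ATPase, was at 52.5 ± 7.22 TPM, Anp32e, a chaperone that removes H2A.Z, at 44.6 ± 5.08 TPM, the SRCAP subunit Znhit1 at 42.9 ± 0.212 TPM and the acetyltransferase Kat5 at 38.1 ± 0.177 TPM (SD, n = 2). None was called, and 4 passed as higher: Anp32e (log2 ratio 0.29) and Ep400 (0.08), and Srcap (0.17) and Ruvbl2 (0.32), named after their values were seen.

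Of 12 genes that act on H2A.X, 11 were above 1 TPM and tested. The highest were Ssrp1 and Supt16, the subunits of the histone chaperone FACT, at 54.2 ± 5.28 and 27.0 ± 3.10 TPM, the kinase Baz1b at 39.3 ± 2.17 TPM and Mdc1, which binds phosphorylated H2A.X, at 16.1 ± 1.34 TPM (SD, n = 2). The phosphatase gene Eya1 was under 1 TPM, at 0.18 and 0.31 TPM. None was called; 5 passed as higher, including Mdc1 (log2 ratio 0.34) and Supt16 (0.26), and 1 as lower, the ubiquitin ligase gene Rnf8 (-0.43), named after its value was seen.

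Among macroH2A partners, the splicing regulators Mbnl1 and Qk, which act on the H2afy exclusive exons, were at 206 ± 7.71 and 61.0 ± 1.29 TPM. Parp1 and Chd1l, listed as ADP-ribose partners, were at 26.4 ± 3.90 and 7.19 ± 0.467 TPM (SD, n = 2). None of the 5 genes passed the adjusted threshold by the exact binomial test, and 1 had an unadjusted p of at most 0.05; with edgeR's test the counts were 0 and 0, with DESeq2 size factors 1 passed the adjusted threshold, and with ERCC reads 2 did. Of 7 factors of replication-dependent histone mRNA processing, Slbp, the stem-loop binding protein gene, was highest at 42.7 ± 8.68 TPM, with Eri1 at 16.4 ± 0.184 TPM, Lsm10 at 15.6 ± 3.35 TPM and Casp8ap2 at 6.24 ± 0.453 TPM. Zfp473 was under 1 TPM. Slbp was higher in replicate 2 (log2 ratio 0.33) and Lsm10 lower (-0.41); the other 5 did not pass. With edgeR's test, none of the partner, linker or processing genes passed.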

How the data were processed

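Total RNA-seq was measured in 2 libraries of 1 group, grouped by the labels. The authors deposited, per library, a gene table and a transcript table with an expected count, a TPM and a posterior mean TPM, made from alignments to mm10 with annotation M21, per the deposited file lists; the sources used here do not name the aligner or the estimator. The deposited transcript table also holds the percent of each gene's TPM, and a second deposited table, made straight from reads, lists transcripts with their estimated count and TPM. Total estimated reads were 18836093 and 18444369, which limits the precision of the lowest genes. The 9 genes and all lists (121 distinct symbols, 1 unmatched, H3f5) were chosen with earlier results of these data known. Expected counts were rounded and compared with an exact conditional binomial test, scaled to the reads of annotated genes other than nuclear and mitochondrial ribosomal RNA (18060581 and 17609100), for genes with at least 50 reads in sum; ratios used 0.5 added to each count. Intervals are exact (Clopper-Pearson, 95%) and cover counting error only. The test was checked on simulated counts that held counting error only, so the check does not cover other spread between libraries. Named were all members, up to 4 genes per list with the highest mean TPM, every listed gene called or under 1 TPM in both libraries, and transcripts with at least 5% of gene TPM; cell type markers are given mainly as counts and sums, and 1 called marker is not reported here by name. Other genes outside this rule were named after their values were seen. Coding sequences and exons were read from the M21 annotation and transcripts. Alternatives were other TPM tables, scalings (TMM, DESeq2, ERCC), no count minimum and edgeR's exact test. Tools were Python 3.11.15 (numpy 2.4.6, pandas 2.3.3, scipy 1.17.1, matplotlib 3.10.9), R 4.3.3, edgeR 4.0.16 and DESeq2 1.42.0.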

Additional observations from a re-analysis of the deposited data

How the results depend on the processing

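No paired analysis was possible because both libraries belong to 1 group. No member was called between the libraries under any of the 6 alternatives. The number of members past the adjusted threshold was 4 by the exact binomial test. It was 0 with edgeR's test, whose spread was estimated from the same difference that it tests. It was 4 under the other 5 alternatives. With DESeq2 size factors, 3 of the 4 were higher and 1 lower, and with ERCC reads 2 and 2. Over all genes, the calls numbered 280, against 560 with no count minimum, and 3074 genes passed the adjusted threshold, against 182 with edgeR's test. With ERCC reads the log2 ratios of H3f3b (-0.0389) and H2afv (-0.0151) reversed; the cause was not tested. The summed TPM of the members, 2997, moved to 2896 with posterior means, 3230 in the second table and 6409 rescaled over protein-coding genes. The H3f3b share of 67.5% moved to 60.0% in the second table and 72.0% of counts. Over transcripts annotated as protein-coding alone, the order by TPM turned. There H3f3b had 423 and 427 TPM against 766 and 729 TPM for H3f3a, and H3f3a was also ahead in the second table. The H2afz share of 86.1% moved to 91.2% in the second table and 88.7% of counts. The macroH2A1.1 share of 13.2% moved to 11.6% in the second table, and the members' share of histone TPM, 9.99%, to 18.6% of counts. Leaving out a replicate gave 2929 to 3065 TPM for the sum, 66.3% to 68.7% for H3f3b, 85.5% to 86.7% for H2afz, 12.7% to 13.7% for macroH2A1.1 and 9.15% to 10.8% for the members' share. Depth limits H1fx, at 22 and 18 reads.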
